A study of Mus musculus with 15 samples.

Results

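The genes described here are 32 members of the amino acid stress program run by the transcription factor ATF4: ATF4 and CHOP (gene Ddit3) with 9 further regulators, 8 enzymes of amino acid and one-carbon metabolism, 3 amino acid transporter subunits, the lipoprotein receptor gene Vldlr and 9 cytosolic aminoacyl-tRNA synthetases. They were chosen by symbol from the known biology of the pathway, with earlier results of these data known. All 32 were found among the 23337 gene symbols of the count files. RNA was sequenced from progenitor cells sorted from mouse bone marrow, in 15 libraries of 4 groups. Common myeloid progenitors (CMP) were taken as cells with CD117 and CD34 and little CD16/32 that lack lineage markers and Sca1, and granulocyte-monocyte progenitors (GMP) as the same gate with much CD16/32. The groups are KO CMP (Trappc1 knockout, libraries 1 to 4), WT CMP (wild type, libraries 1 to 4), KO GMP (libraries 1, 3 and 4) and WT GMP (libraries 1 to 4), all untreated. No KO GMP library 2 is among the 15 libraries. The sources used here do not give strain, age, any Cre driver or the deleted part of Trappc1. Nor do they say whether each library is a different animal: p-values cover the spread among the libraries at hand, and some of it may be technical.

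When a cell lacks amino acids, heme or proper protein folding, kinases phosphorylate the initiation factor eIF2, general translation falls, and the ATF4 mRNA is translated more efficiently. ATF4 protein then pairs with partners such as C/EBP proteins and CHOP on composite elements near genes for amino acid uptake, amino acid synthesis and tRNA charging. ATF4 is therefore controlled largely at translation, which RNA levels do not measure. TRAPPC1 belongs to the core of the TRAPP complexes, which work in vesicle traffic between the endoplasmic reticulum and the Golgi.

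Promoter sequences show how the composite element is placed in this gene set. The 8-base core TGATGNAA was searched on both strands in the 300-base RefSeq windows (GRCm38.p6) that run from 250 bases before to 50 bases after an annotated start. A window was at hand for 24 of the 32 members, and 10 of these genes (41.7%) held the core, against 1188 of 26742 genes with a window (4.44%). Of the 7 members with a window that were called in a KO against WT comparison below, 3 held it, as did 7 of the 17 that were not called. The members were chosen for their link to ATF4, so the comparison of their share with that of all genes is not an independent test. A match is a description of letters and not a binding site. The matches shown are printed 5′ to 3′ on the strand that reads TGATGNAA, with the core in capitals and 10 bases on either side, because they show where the core lies in the members that hold it:
Aars (chr8:111033841-111033868, minus strand): cagagcgctcTGATGAAAagtgacccgc
Asns (chr6:7693215-7693242, minus strand): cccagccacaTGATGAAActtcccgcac
Atf3 (chr1:191183426-191183453, plus strand): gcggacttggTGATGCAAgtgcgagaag
Chac1 (chr2:119351039-119351066, minus strand): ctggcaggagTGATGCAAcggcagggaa
Gars (chr6:55037961-55037988, minus strand): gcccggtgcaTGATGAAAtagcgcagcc
Nupr1 (chr7:126625563-126625590, plus strand): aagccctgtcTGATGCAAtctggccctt
Slc7a11, first match (chr3:50443662-50443689, minus strand): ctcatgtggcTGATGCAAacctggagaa
Slc7a11, second match (chr3:50443643-50443670, plus strand): ggctgcatgaTGATGCAAattctccagg
Trib3 (chr2:152344029-152344056, plus strand): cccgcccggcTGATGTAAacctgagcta
Vldlr (chr19:27216810-27216837, minus strand): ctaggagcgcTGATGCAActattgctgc
Yars (chr4:129189896-129189923, plus strand): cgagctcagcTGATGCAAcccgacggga
Most cores shown read TGATGCAA, while Asns, Gars and the Aars match shown read TGATGAAA and Trib3 reads TGATGTAA. Both Slc7a11 matches lie on opposite strands within one stretch of its promoter. Vldlr has a pair of windows, and its match lies in the second.

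Gars, the glycyl-tRNA synthetase gene and one of the members called in KO CMP, is shown with the 250 bases before its start as an example of the context (chr6:55037751-55038000, plus strand, GRCm38.p6). Capitals mark TTTCATCA, the core as read on the opposite strand.
Gars promoter: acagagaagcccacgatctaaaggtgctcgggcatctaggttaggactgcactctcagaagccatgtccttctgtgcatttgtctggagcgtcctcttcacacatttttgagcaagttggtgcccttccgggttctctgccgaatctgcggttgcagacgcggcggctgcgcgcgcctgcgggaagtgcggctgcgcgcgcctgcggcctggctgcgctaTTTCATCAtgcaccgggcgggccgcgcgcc
Its core begins 30 bases before the annotated start.

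**Figure D1:**
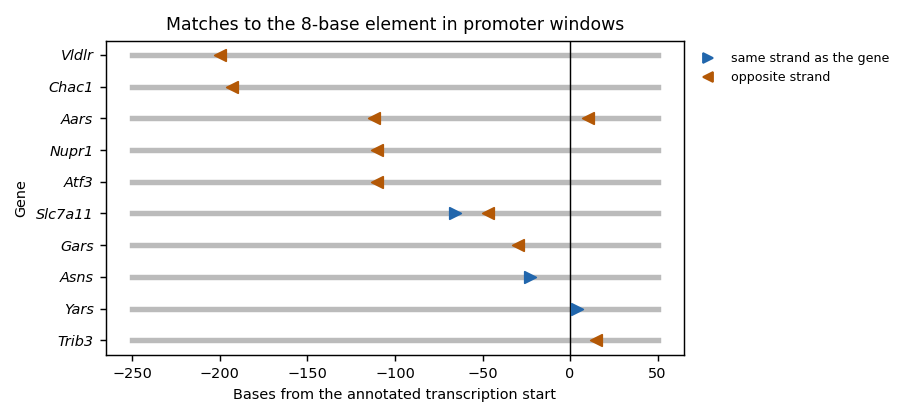
Positions of the TGATGNAA core in the promoter windows of the 10 members that hold it; the x axis is distance from the annotated start in bases, each row is a gene and each mark a match on the strand given in the legend. Matches lie on both sides of the start and on both strands, and Aars and Slc7a11 each hold a pair.

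Levels are given as CPM, the deposited estimated counts of a gene scaled to a common library total, and fold changes are log2 values from edgeR ± standard error (SE), with p-values adjusted over 15181 tested genes and a threshold of 0.05. Library totals ran from 61.3 to 120.3 M units, of which about 4 may stand for 1 fragment. All 32 members passed the filter on low counts. Trappc1 itself had 5.56, 3.83, 11.7 and 13.4 CPM in KO CMP libraries 1 to 4, against 18.4, 26.2, 18.8 and 25.2 CPM in WT CMP libraries 1 to 4. It had 6.09, 24.1 and 25.2 CPM in KO GMP libraries 1, 3 and 4, against 41.3, 37.0, 30.9 and 33.3 CPM in WT GMP libraries 1 to 4. KO and WT did not overlap in either cell type (exact two-sided permutation p = 0.0286 in CMP, the smallest that 70 splits allow, and 0.0571 in GMP, the smallest that 35 allow, so the GMP test cannot pass). Xist, the X-inactivation RNA, stood at 109.5 and 203.8 CPM in KO CMP libraries 1 and 2 and at 123.2 CPM in KO GMP library 1, against at most 2.17 CPM in every other library. These 3 libraries stand apart, so KO effects are given over all libraries and within numbers 1 and 2 and numbers 3 and 4, a split taken from an earlier look at these data. They are all the KO libraries of numbers 1 and 2, and no WT library has high Xist. Within numbers 1 and 2, an effect of genotype and a difference between libraries with high and low Xist therefore cannot be told apart. Trappc1 in KO parted by number as well, at 11.7 and 13.4 CPM in KO CMP libraries 3 and 4 against 5.56 and 3.83 CPM in libraries 1 and 2. In KO GMP it was 24.1 and 25.2 CPM in libraries 3 and 4, against 6.09 CPM in library 1. A difference of KO effects between the number sets therefore cannot be told apart from these differences in remaining Trappc1 or in Xist. No label ties a number to a batch.

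The sort labels were checked against their own genes. Fcgr3, which encodes CD16, had 124.8 to 310.9 CPM in KO GMP and 238.7 to 314.5 CPM in WT GMP, against 12.9 to 31.1 CPM in KO CMP and 36.6 to 115.4 CPM in WT CMP. Library 1 held the lowest KO GMP value, and WT CMP libraries 1 and 2 held the highest CMP values. Kit, which encodes CD117, was at 257.5 CPM or more in every library. Cd34 had 547 CPM in KO GMP library 1, within its range of 524.9 to 746.5 CPM in the CMP libraries. The other GMP libraries had 205.8 to 326.4 CPM of Cd34.

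Per kilobase of exon, the members spread over more than 3 orders of magnitude. Phgdh, the first enzyme of serine synthesis, had the highest level in all 4 groups, at 182.3 CPM per kb in KO CMP, 162.1 in WT CMP, 186.0 in KO GMP and 172.6 in WT GMP. Atf4 came next in each group, at 124.2 CPM per kb in KO CMP, 110.9 in WT CMP, 143.3 in KO GMP and 129.2 in WT GMP. At the low end lay Aldh1l2, a mitochondrial folate enzyme, at 0.044 CPM per kb in KO CMP, 0.0238 in WT CMP, 0.0266 in KO GMP and 0.00787 in WT GMP. Cth, a transsulfuration enzyme, and Slc7a11, the cystine transporter subunit, were also near the bottom of every group. Exon lengths are from GENCODE M21 and not from the annotation of the counts, which the sources used here do not give.

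**Figure D2:**
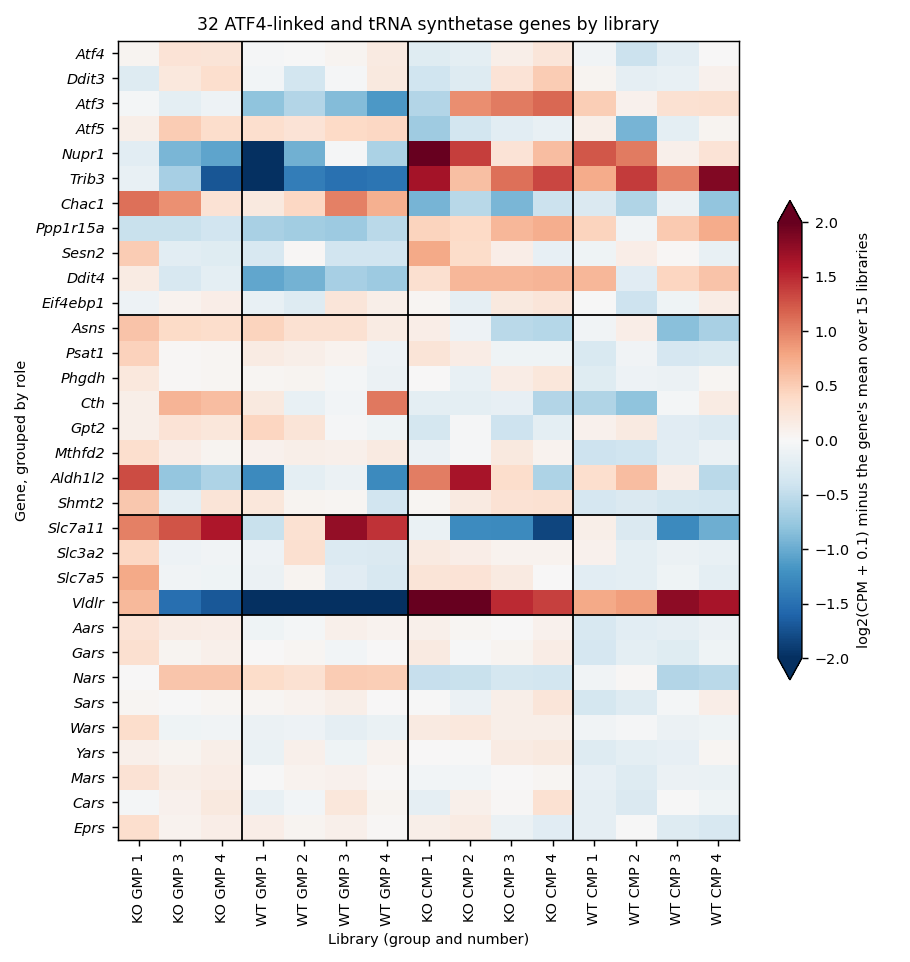
Heat map of the 32 members (rows, by role) in the 15 libraries (columns, GMP then CMP, with KO left of WT in each); colour is log2(CPM + 0.1) minus the gene's mean over all libraries. Vldlr, Trib3 and Ppp1r15a are higher in CMP columns and Slc7a11, Chac1 and Nars in GMP columns.

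The question of the series is what loss of Trappc1 does to these progenitors. Over all libraries no member passed the adjusted edgeR test in KO CMP against WT CMP. The log2 change was above 0 in 25 of 32 members in CMP, against 51.4% of all tested genes, with a median of 0.19 against 0.01 over all genes. The edgeR test called 0 members higher and 0 lower, and it called 0% of all genes in either direction. At an unadjusted p under 0.05, 9 members lay higher and 0 lower, against 4.68% and 6.92% of all genes. DESeq2, which gave an adjusted p to 28 of the members, called 1.12% of genes higher and 1.9% lower. It called 4 members higher in KO CMP and 0 lower, namely Shmt2 (0.54 ± 0.15, adjusted p = 0.0213), Gars (0.32 ± 0.08, adjusted p = 0.00981), Mthfd2 (0.32 ± 0.10, adjusted p = 0.0396) and Aars (0.27 ± 0.07, adjusted p = 0.00896).

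In KO CMP 7 members lay above WT CMP in every library without overlap, against 3.25% of all genes that lay wholly above and 3.6% wholly below. They were Mthfd2 and Shmt2 of mitochondrial one-carbon metabolism, the large neutral amino acid transporter Slc7a5, and the synthetases Aars, Gars, Wars and Mars. Shmt2, the mitochondrial serine hydroxymethyltransferase, is named here after its values were seen. It had 243, 267, 289.9 and 292 CPM in KO CMP libraries 1 to 4, against 187, 194, 186 and 184 CPM in WT CMP. All KO CMP libraries of Shmt2 were above all WT CMP libraries, by 0.54 ± 0.14 (adjusted p = 0.206 with edgeR). Aars, the alanyl-tRNA synthetase, had 134, 129, 126 and 133 CPM in KO CMP, against 100.4, 109, 111 and 115 CPM in WT CMP. Aars was 0.26 ± 0.07 higher (adjusted p = 0.203), with 4 KO libraries within a narrow range and the lowest of them above the highest WT library. Of the exon bases of Aars, 14.3% are shared with Exosc6 on the same strand, so reads there cannot be assigned to one gene alone.

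In GMP the same comparison gave 29 of 32 members above 0, against 51.9% of all genes, with a median of 0.17 against 0.01 over all genes. The edgeR test called 0 members in either direction and 0% of all genes. At an unadjusted p under 0.05, 7 members lay higher and 0 lower, against 4.49% and 2% of all genes, and DESeq2 called Vldlr alone (2.08 ± 0.48, adjusted p = 0.012), beside 0.317% of genes higher and 0.0792% lower. Every KO GMP library lay above every WT GMP library for Atf3, Ppp1r15a, Ddit4, Vldlr, Aars, Gars, Wars and Mars, 8 members, against 3.64% of all genes wholly above and 3.7% wholly below. The KO effect in CMP minus that in GMP was called in 0 members by edgeR and by DESeq2, beside 0% of genes above 0 and 0.0198% below with DESeq2. At an unadjusted p under 0.05 this difference was below 0 in 1 member (Vldlr, -1.46 ± 0.68) and above 0 in 0, against 2.12% and 0.85% of all genes. Calls were also 0 in both cell types when the 3 libraries with high Xist were left out, a choice made after the data were seen.

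**Figure D3:**
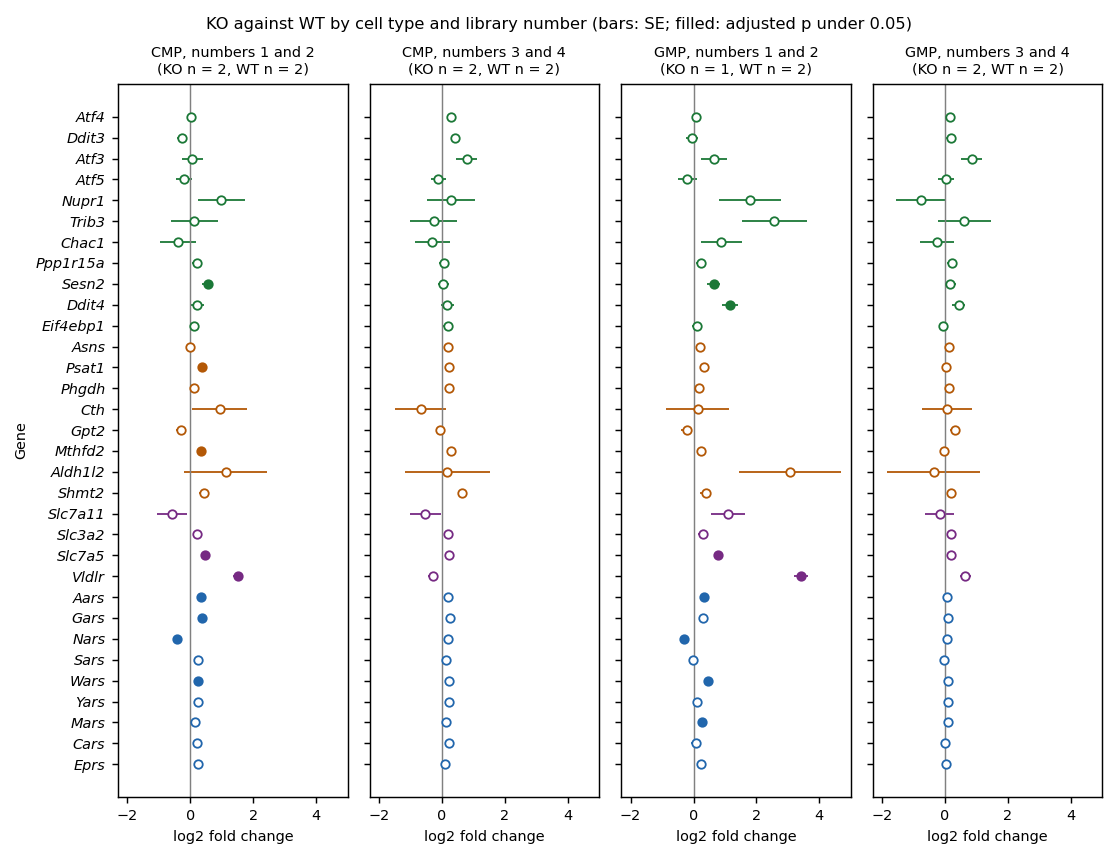
KO against WT log2 change (x axis) of each member (rows, coloured by role) in 4 panels, one for each cell type and number set; points are edgeR estimates, filled where the adjusted p is under 0.05, and bars are ± 1 SE. Vldlr stands furthest to the right in numbers 1 and 2 (1.52 in CMP, 3.41 in GMP), and Nars lies left of 0 there and right of 0 in numbers 3 and 4.

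Within numbers 1 and 2, 8 members rose and 1 fell in KO CMP (n = 2) against WT CMP (n = 2). The background was 8.23% of all genes higher and 10.2% lower, and 25 of 32 members were above 0, against 51.3% of all genes. By role, 1 of 11 regulators (Sesn2), 2 of 8 enzymes (Psat1, Mthfd2), 2 of 4 transporter and receptor genes (Vldlr, Slc7a5) and 3 of 9 synthetases (Aars, Gars, Wars) rose, and the synthetase Nars fell. DESeq2 called 13 members higher there, adding Shmt2, Mars, Sars, Yars and Eprs, and 1 lower, beside 11.8% of genes higher and 10.7% lower with DESeq2. With the library number as a block, Eprs, the glutamyl-prolyl-tRNA synthetase, was called too (0.23 ± 0.07, adjusted p = 0.044). In numbers 3 and 4 (n = 2 each) the KO libraries held no high Xist, and more Trappc1 than those of numbers 1 and 2. In this set edgeR called 0 members in either direction (0.00659% and 0% of all genes). There 25 of 32 members were above 0 against 47.2% of all genes, and 14 reached an unadjusted p under 0.05 in the higher direction and 0 in the lower (6.18% and 5.21% of all genes). DESeq2 called 2 of them, Shmt2 (0.64 ± 0.15, adjusted p = 0.00595) and Wars (0.21 ± 0.06, adjusted p = 0.0453), beside 0.481% of genes higher and 0.428% lower.

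Numbers 1 and 2 of GMP rest on KO GMP library 1 alone, whose Cd34 level lay within the CMP range. That library is assumed to vary like the other groups. Against WT GMP libraries 1 and 2, 7 members rose and 1 fell, with 11% of all genes higher and 9% lower, and 27 of 32 members were above 0 against 50.5% of all genes. Of the regulators 2 rose (Ddit4, Sesn2), of the enzymes 0, of the transporter and receptor genes 2 (Vldlr, Slc7a5) and of the synthetases 3 (Wars, Aars, Mars), while Nars fell. DESeq2 called 11 higher, adding Psat1, Eprs, Trib3 and Gars, and 1 lower, beside 13.1% of genes higher and 11.2% lower with DESeq2. In numbers 3 and 4 edgeR and DESeq2 called 0 members in KO GMP (n = 2) against WT GMP (n = 2), beside 0.00659% of all genes in each direction with edgeR and 0.0891% higher and 0.206% lower with DESeq2, and 25 of 32 members were above 0 against 47.9% of all genes. Atf3, Slc7a5 and Vldlr lay higher there at an unadjusted p under 0.05, and 0 members lower (2.07% and 3.12% of all genes).

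Cell type markers differed between KO and WT in numbers 1 and 2, and some also differed between the WT number sets. Granule markers summed to 21690 and 24110 CPM in WT CMP libraries 1 and 2, against 11330 and 12230 CPM in libraries 3 and 4. In KO CMP they summed to 4496 and 5127 CPM in libraries 1 and 2, against 11600 and 12090 CPM in libraries 3 and 4. Stem markers summed to 314.9 and 333.4 CPM in WT CMP libraries 1 and 2, against 380.1 and 366.3 CPM in libraries 3 and 4. In KO CMP of numbers 1 and 2, 7 of 8 stem and multipotent progenitor markers, 7 of 8 stromal markers and 4 of 8 erythroid markers were called higher. Lower there were 8 of 10 granule markers, 6 of 6 monocyte markers, 3 of 6 mast cell and basophil markers and 1 of 8 lymphoid markers. These are edgeR calls, beside 8.23% of all genes higher and 10.2% lower. DESeq2 called 4 of the 8 stromal markers higher in that comparison. In KO GMP library 1 the calls were 8 of 8 stem, 6 of 8 stromal, 5 of 8 erythroid, 4 of 6 mast cell and basophil markers and 1 of 10 granule markers higher, and 8 of 10 granule, 4 of 6 monocyte and 1 of 8 lymphoid markers lower. The shares of all genes called in that GMP comparison are given above with the members. In numbers 3 and 4 edgeR called 0 genes of these lists in both cell types, beside at most 0.00659% of all genes in each direction. DESeq2 called Ngp, S100a9 and Cxcl12 higher there in CMP, and in GMP Esam higher and Fcer1a and Mcpt8 lower. It called 0.481% of genes higher and 0.428% lower in CMP of those numbers, and 0.0891% and 0.206% in GMP. At an unadjusted p under 0.05, 4 of 10 granule genes and 1 of 8 stromal genes were higher in CMP of those numbers and 1 of 8 stem, 1 of 8 erythroid, 2 of 6 mast cell and basophil and 3 of 6 monocyte genes lower. Of all genes 6.18% were higher and 5.21% lower there at that p. In GMP of those numbers 2 stem genes and 1 lymphoid gene were higher at that p and 4 mast cell and basophil, 3 monocyte and 1 lymphoid genes lower. The shares of all genes were 2.07% higher and 3.12% lower.

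Summed over the stem list, KO CMP libraries held 369.6 to 643.7 CPM and WT CMP libraries 314.9 to 380.1 CPM, and KO GMP held 59.1 to 208.7 CPM and WT GMP 54.2 to 56.8 CPM. The stromal list summed to 58.2 to 253.4 CPM in KO CMP and 50.4 to 69.4 CPM in WT CMP, and to 24.0 to 116.8 CPM in KO GMP and 14.1 to 25.0 CPM in WT GMP. Erythroid markers summed to 273.5 to 462.4 CPM in KO CMP and 155.6 to 266.4 CPM in WT CMP, and to 38.3 to 119.2 CPM in KO GMP and 32.9 to 35.3 CPM in WT GMP. Of single defining genes, the stromal chemokine gene Cxcl12 stood at 91.04 and 127.1 CPM in KO CMP libraries 1 and 2 and 48.7 CPM in KO GMP library 1, against at most 15.1 CPM in every other library. The collagen gene Col3a1 stood at 9.51 and 11.3 CPM in KO CMP libraries 1 and 2 and 3.16 CPM in KO GMP library 1, against at most 0.869 CPM elsewhere, with 0 in 6 libraries. Beta globin (Hbb-b1) was above 0 in all 15 libraries (0.112 to 5.13 CPM), alpha globin (Hba-a1) was at 0 in 11, the B cell factor gene Pax5 in 8 and the T cell receptor chain gene Cd3e in 5. The cytotoxic granule gene Nkg7 ranged from 99.9 to 457.9 CPM. Granule markers summed to 4496 to 12090 CPM in KO CMP and 11330 to 24110 CPM in WT CMP, and to 21390 to 44840 CPM in KO GMP and 39190 to 42810 CPM in WT GMP. Monocyte markers summed to 372.3 to 1604 CPM in KO CMP and 1990.0 to 2428 CPM in WT CMP, and to 995.6 to 3744 CPM in KO GMP and 4218 to 4965 CPM in WT GMP. For mast cells and basophils the sums were 98.8 to 123.2 CPM in KO CMP and 127.8 to 213.9 CPM in WT CMP, and 628.5 to 1218 CPM in KO GMP and 1143 to 1273 CPM in WT GMP. Lymphoid markers gave 118.8 to 166.5 CPM in KO CMP and 111.7 to 252.7 CPM in WT CMP, and 250.4 to 458.7 CPM in KO GMP and 367.4 to 438.1 CPM in WT GMP. The part of these cells in the member results was not tested, and in bulk samples a change in the mix of cells and a change in RNA per cell cannot be told apart.

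Among the regulators, KO and WT levels of Atf4 and Ddit3 overlapped over all libraries, while for Ddit3 the number sets of CMP went opposite ways. Atf4 had 249.0, 256, 319 and 348 CPM in KO CMP libraries 1 to 4, against 279, 217, 255 and 295 CPM in WT CMP, and 305, 357 and 351 CPM in KO GMP libraries 1, 3 and 4, against 289.6, 292, 304 and 334 CPM in WT GMP. KO and WT overlapped in both cell types, and KO exceeded WT by 0.16 ± 0.12 in CMP (adjusted p = 0.666), while the GMP value was 0.15 ± 0.13 (adjusted p = 0.973). In CMP of numbers 3 and 4 both KO libraries lay above both WT libraries of Atf4 (0.28 ± 0.11, adjusted p = 0.386).

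Ddit3 encodes CHOP, a transcription factor induced by ATF4. It had 10.2, 11.3, 16.3 and 19.3 CPM in KO CMP, against 14.1, 11.96, 12.2 and 14.4 CPM in WT CMP, and 11.3, 15.6 and 17.0 CPM in KO GMP, against 13.03, 10.5, 13.2 and 15.5 CPM in WT GMP. The KO libraries with high Xist were the lowest of their groups. In CMP both KO libraries lay below both WT libraries in numbers 1 and 2, and above both in numbers 3 and 4. In CMP the difference of KO effects between number sets was -0.69 ± 0.21, with an adjusted p of 0.0704, and with the library number as a block this difference passed (-0.69 ± 0.17, adjusted p = 0.0277). Ddit3 shares 68 exon bases with Mars on the opposite strand, and the sources used here do not give the strand setting of the counting.

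Sesn2, which encodes sestrin 2, a restrainer of mTORC1 signalling, had 15.1, 11.5, 9.68 and 7.86 CPM in KO CMP libraries 1 to 4, against 8.36, 9.75, 9.01 and 7.96 CPM in WT CMP. In GMP it had 12.6, 7.60 and 7.43 CPM in KO libraries 1, 3 and 4, against 7.06, 8.95, 6.73 and 6.73 CPM in WT. The high KO values are those of the libraries with high Xist. Sesn2 rose in numbers 1 and 2 of CMP (0.55 ± 0.17, adjusted p = 0.0441) and of GMP (0.65 ± 0.21, adjusted p = 0.0469). The CMP call was lost without KO CMP library 1 (0.34, adjusted p = 0.274), WT CMP library 1 (0.45, adjusted p = 0.226) or WT CMP library 2 (0.67, adjusted p = 0.0769), and without the filter on low counts (0.54, adjusted p = 0.0502). The GMP call was lost without WT GMP library 1 (0.52, adjusted p = 0.192) and with the library number as a block (0.68, adjusted p = 0.0571).

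Ddit4, which encodes REDD1, another restrainer of mTORC1, had 24.9, 17.8 and 19.4 CPM in KO GMP libraries 1, 3 and 4, against 10.8, 11.5, 14.1 and 13.4 CPM in WT GMP. All KO GMP libraries were above all WT GMP libraries, and the change was 0.73 ± 0.19 (adjusted p = 0.523). It rose in numbers 1 and 2 of GMP (1.16 ± 0.25, adjusted p = 0.00708), while numbers 3 and 4 gave 0.43 ± 0.21 (adjusted p = 1). In CMP it had 27.9, 35.3, 35.4 and 35.6 CPM in KO libraries, against 35.3, 19.0, 29.9 and 33.0 CPM in WT libraries, and the genotypes overlapped (0.20 ± 0.17, adjusted p = 0.736).

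Ppp1r15a encodes GADD34, the phosphatase subunit that reverses eIF2 phosphorylation. It had 169, 164, 197 and 206 CPM in KO CMP, against 171, 119, 179.9 and 208 CPM in WT CMP, and 91.8, 91.9 and 95.1 CPM in KO GMP, against 79.6, 77.2, 75.6 and 86.1 CPM in WT GMP. The KO GMP libraries lay close together and above all WT GMP libraries (0.22 ± 0.14, adjusted p = 0.882), while the CMP genotypes overlapped. Trib3, a pseudokinase gene induced by ATF4 and CHOP, had 2.13, 0.968, 1.43 and 1.69 CPM in KO CMP, against 1.09, 1.76, 1.31 and 2.44 CPM in WT CMP. In GMP it had 0.536, 0.347 and 0.116 CPM in KO libraries, against 0, 0.170, 0.151 and 0.157 CPM in WT libraries, which are few counts. Chac1, a glutathione-degrading enzyme gene, had 0.217, 0.310, 0.220 and 0.349 CPM in KO CMP, against 0.392, 0.298, 0.455 and 0.249 CPM in WT CMP, and 1.20, 1.04 and 0.638 CPM in KO GMP, against 0.588, 0.707, 1.12 and 0.891 CPM in WT GMP. KO and WT overlapped for Trib3 and Chac1 in CMP and in GMP.

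The other regulators were Atf3, Atf5, Nupr1 and Eif4ebp1, and none was called in KO against WT in any number set. Atf3, a stress-induced repressor, ranged from 16.6 to 55.4 CPM in KO CMP and 26.4 to 35.0 CPM in WT CMP, and from 21.7 to 24.2 CPM in KO GMP and 11.2 to 16.5 CPM in WT GMP. Its GMP ranges did not overlap (0.73 ± 0.28, adjusted p = 0.701). Atf5 ranged from 10.8 to 16.0 CPM in KO CMP and 9.26 to 19.2 CPM in WT CMP. The chromatin protein gene Nupr1 ranged from 1.47 to 7.65 CPM in KO CMP and 1.29 to 2.96 CPM in WT CMP. Eif4ebp1, which encodes the translation repressor 4E-BP1, ranged from 46.8 to 62.8 CPM in KO CMP and 39.9 to 59.0 CPM in WT CMP.

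Of the enzymes, Mthfd2 and Psat1 passed in numbers 1 and 2 of CMP. Mthfd2, a mitochondrial methylene-tetrahydrofolate dehydrogenase, had 37.1, 39.7, 45.8 and 42.0 CPM in KO CMP libraries 1 to 4, against 30.1, 30.3, 34.8 and 37.0 CPM in WT CMP. The genotypes did not overlap in CMP, and numbers 1 and 2 gave a change of 0.35 ± 0.08 (adjusted p = 0.00763), while numbers 3 and 4 gave 0.29 ± 0.08 (adjusted p = 0.294). In GMP it had 50.8, 44.2 and 41.7 CPM in KO libraries, against 42.8, 43.7, 43.2 and 45.4 CPM in WT libraries, with overlap (0.06 ± 0.10, adjusted p = 1).

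Psat1, the phosphoserine aminotransferase of serine synthesis, had 253, 234, 198 and 199 CPM in KO CMP, against 171, 202, 167 and 171 CPM in WT CMP. In GMP it had 292, 214 and 216 CPM in KO libraries, against 238, 229.8, 222 and 198 CPM in WT libraries. Within each number pair of CMP the KO libraries were above the WT libraries, and over all 4 they overlapped only through WT CMP library 2. Psat1 rose in numbers 1 and 2 of CMP (0.38 ± 0.09, adjusted p = 0.00809), a call lost without KO CMP library 1 (0.33, adjusted p = 0.0537) or WT CMP library 1 (0.27, adjusted p = 0.0769). Shmt2 had 342, 206 and 283 CPM in KO GMP, against 277, 246, 244 and 181 CPM in WT GMP, with overlap (0.22 ± 0.15, adjusted p = 0.914).

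The 5 other enzymes were not called in KO against WT. Phgdh ranged from 391 to 505 CPM in KO CMP and 365 to 445 CPM in WT CMP, and from 439.8 to 501 CPM in KO GMP and 401 to 452 CPM in WT GMP. Asns, the asparagine synthetase gene and a classic ATF4 target, ranged from 17.3 to 28.0 CPM in KO CMP and 14.3 to 27.9 CPM in WT CMP, with a change of 0.07 ± 0.20 (adjusted p = 0.947). Gpt2, a mitochondrial alanine aminotransferase gene, ranged from 5.55 to 7.29 CPM in KO CMP and 6.12 to 8.41 CPM in WT CMP. Cth and Aldh1l2 stayed under 1 CPM in every library.

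Among the transporter and receptor genes, Vldlr showed the largest KO effect of the 32 members in numbers 1 and 2. VLDLR is a lipoprotein receptor whose gene is an ATF4 target under endoplasmic reticulum stress. It had 57.8, 45.2, 29.2 and 26.8 CPM in KO CMP libraries 1 to 4, against 17.4, 18.4, 36.1 and 32.7 CPM in WT CMP, and 16.2, 3.56 and 3.13 CPM in KO GMP libraries 1, 3 and 4, against 1.18, 1.82, 2.37 and 1.90 CPM in WT GMP. In CMP of numbers 1 and 2 KO lay above WT, and in numbers 3 and 4 both KO libraries lay below both WT libraries. In GMP all KO libraries lay above all WT libraries, library 1 far above.

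In numbers 1 and 2 Vldlr rose in CMP (1.52 ± 0.16, adjusted p = 3.7e-05), and in GMP with its single KO library (3.41 ± 0.21, adjusted p = 1.02e-06). The CMP and GMP effects within these numbers were not tested against each other. In numbers 3 and 4 it measured -0.30 ± 0.16 for CMP (adjusted p = 0.498), while GMP gave 0.65 ± 0.18 (adjusted p = 0.521). The effects differed between numbers 1 and 2 and numbers 3 and 4 by 1.82 ± 0.23 for CMP (adjusted p = 0.000346), and for GMP by 2.77 ± 0.28 (adjusted p = 0.000106). These differences were called higher in 3.05% of all genes in CMP and 6.27% in GMP, and lower in 4.59% and 4.36%. Among WT CMP libraries alone, Vldlr was lower in numbers 1 and 2 than in numbers 3 and 4 (-0.94), and this WT difference enters the CMP difference between the sets.

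Slc7a5 encodes LAT1, the large neutral amino acid transporter. It had 179, 179.7, 168 and 149.6 CPM in KO CMP, against 129, 130.2, 141 and 131 CPM in WT CMP, and 252, 143 and 141 CPM in KO GMP, against 138, 155, 127 and 119 CPM in WT GMP. In CMP the genotypes did not overlap, and in GMP KO library 1 stood above all others. The rise in numbers 1 and 2 was 0.47 ± 0.08 for CMP (adjusted p = 0.00146), while for GMP it was 0.78 ± 0.10 (adjusted p = 0.000146), against 0.23 ± 0.08 (adjusted p = 0.356) and 0.20 ± 0.08 (adjusted p = 0.858) in numbers 3 and 4. The effect differed between the number sets in GMP (0.58 ± 0.13, adjusted p = 0.0125), and in CMP the difference was 0.24 ± 0.12 (adjusted p = 0.258). Its heavy chain partner gene Slc3a2 ranged from 144.8 to 156 CPM in KO CMP and 121 to 147 CPM in WT CMP and was not called (0.20 ± 0.14, adjusted p = 0.639). Slc7a11, the cystine transporter subunit, had 0.924, 0.372, 0.367 and 0.216 CPM in KO CMP, against 1.13, 0.821, 0.367 and 0.474 CPM in WT CMP, and 2.17, 2.59 and 3.35 CPM in KO GMP, against 0.727, 1.29, 3.73 and 2.96 CPM in WT GMP. The WT GMP libraries part by number, with libraries 1 and 2 low, and KO and WT overlapped.

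**Figure D4:**
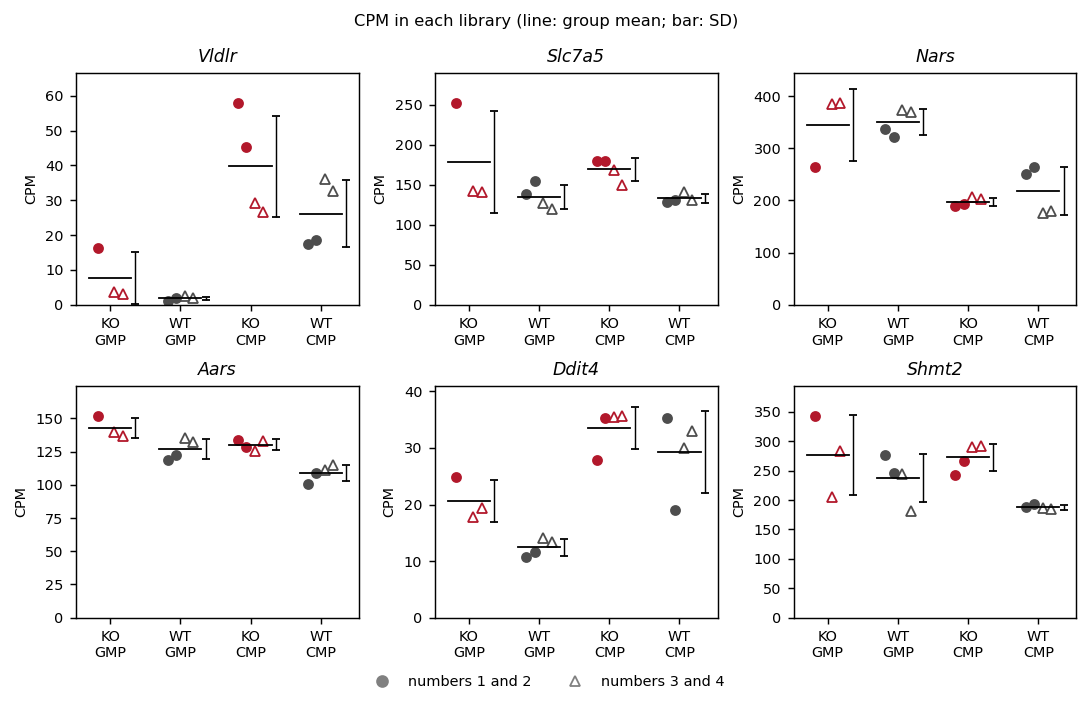
CPM of Vldlr, Slc7a5, Nars, Aars, Ddit4 and Shmt2 in every library by group on the x axis; circles are numbers 1 and 2, triangles numbers 3 and 4, lines the group mean and bars ± SD. KO CMP libraries 1 and 2 and KO GMP library 1 lie apart for Vldlr and on the low side for Nars in GMP, while Aars and Shmt2 in KO CMP lie above all WT CMP libraries.

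The synthetases, which charge tRNAs with amino acids, moved by small amounts. In CMP of numbers 3 and 4 all 9 lay above 0 (0.11 to 0.27, median 0.20, against -0.01 over all genes), and in numbers 1 and 2 all but Nars did (-0.43 to 0.35, median 0.23). In GMP the range was -0.32 to 0.46 in numbers 1 and 2 and -0.05 to 0.10 in numbers 3 and 4.

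Aars rose in numbers 1 and 2 of CMP (0.33 ± 0.07, adjusted p = 0.00527) and of GMP (0.33 ± 0.08, adjusted p = 0.0147), with 152, 139.6 and 137 CPM in KO GMP, against 119, 122, 135 and 132 CPM in WT GMP. Its GMP groups did not overlap, and without WT GMP library 1 the call in numbers 1 and 2 was lost (0.34, adjusted p = 0.0516). Gars had 177, 155, 162 and 174 CPM in KO CMP, against 123, 137, 133 and 147 CPM in WT CMP, and 196, 163 and 167 CPM in KO GMP, against 158, 161, 151 and 157 CPM in WT GMP. All KO libraries of Gars lay above all WT libraries in both cell types. Gars rose in numbers 1 and 2 of CMP (0.35 ± 0.09, adjusted p = 0.0125), a call lost without KO CMP library 1 (0.26, adjusted p = 0.0949) or WT CMP library 1 (0.28, adjusted p = 0.103).

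Wars, the tryptophanyl-tRNA synthetase gene, had 101, 102, 96.4 and 96.1 CPM in KO CMP, against 84.9, 87.6, 81.8 and 83.9 CPM in WT CMP, and 113, 83.9 and 84.2 CPM in KO GMP, against 82.0, 82.9, 78.3 and 80.6 CPM in WT GMP. KO lay above WT in both cell types without overlap, by little in KO GMP libraries 3 and 4. Wars is also induced by interferon in human cells. It rose in numbers 1 and 2 of CMP (0.24 ± 0.06, adjusted p = 0.0184) and of GMP (0.46 ± 0.07, adjusted p = 0.000927), against 0.22 ± 0.06 (adjusted p = 0.304) and 0.08 ± 0.06 (adjusted p = 1) in numbers 3 and 4. The CMP call was lost without KO CMP library 2 (0.22, adjusted p = 0.057) or WT CMP library 1 (0.21, adjusted p = 0.1), and without the filter on low counts (0.22, adjusted p = 0.056). The GMP effect differed between number sets by 0.38 ± 0.10 (adjusted p = 0.0264), a call lost without KO GMP library 3 (0.40, adjusted p = 0.0628) or 4 (0.41, adjusted p = 0.0629), or without WT GMP library 1 (0.40, adjusted p = 0.058), 2 (0.39, adjusted p = 0.0578) or 4 (0.39, adjusted p = 0.0561).

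Mars, the methionyl-tRNA synthetase gene, had 111, 112, 116 and 119 CPM in KO CMP, against 103, 96.9, 106 and 106 CPM in WT CMP, and 141, 125 and 128 CPM in KO GMP, against 114, 121, 122 and 117 CPM in WT GMP. Again the KO libraries lay above the WT libraries in both cell types. It rose in numbers 1 and 2 of GMP (0.26 ± 0.08, adjusted p = 0.0393), a call lost without WT GMP library 1 (0.25, adjusted p = 0.116) or 2 (0.30, adjusted p = 0.0558) with the library number as a block (0.26, adjusted p = 0.0523) and without the filter on low counts (0.27, adjusted p = 0.0597).

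Nars, the asparaginyl-tRNA synthetase gene, went the other way. It had 189.8, 193, 206 and 202 CPM in KO CMP, against 249.7, 265, 175 and 180.4 CPM in WT CMP, and 265, 384 and 386 CPM in KO GMP, against 337, 322, 373 and 369 CPM in WT GMP. In CMP, WT libraries 1 and 2 were the highest and WT libraries 3 and 4 the lowest, with all KO libraries between. In GMP, KO library 1 was the lowest.

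Nars fell in numbers 1 and 2 of CMP (-0.43 ± 0.06, adjusted p = 0.000449) and of GMP (-0.32 ± 0.08, adjusted p = 0.0132), and measured 0.20 ± 0.06 (adjusted p = 0.331) and 0.05 ± 0.06 (adjusted p = 1) in numbers 3 and 4. The GMP call was lost without WT GMP library 1 (-0.25, adjusted p = 0.0998). Between the number sets the effect differed by -0.63 ± 0.09 in CMP (adjusted p = 0.00084), which held in every fit that left out 1 library (-0.67 to -0.58). In GMP it differed by -0.37 ± 0.10 (adjusted p = 0.0335), a call lost without KO GMP library 3 (-0.35, adjusted p = 0.122) or 4 (-0.34, adjusted p = 0.137), or without WT GMP library 1 (-0.31, adjusted p = 0.132), 3 (-0.35, adjusted p = 0.109) or 4 (-0.33, adjusted p = 0.117), and without the filter on low counts (-0.36, adjusted p = 0.0636). Among WT CMP libraries alone Nars was 0.53 higher in numbers 1 and 2 than in numbers 3 and 4.

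The other synthetases Sars, Yars, Cars and Eprs were not called in KO against WT by edgeR without the block. In KO CMP against WT CMP they measured 0.18 ± 0.10 for Sars, 0.23 ± 0.08 for Yars, 0.21 ± 0.11 for Cars and 0.18 ± 0.10 for Eprs, with adjusted p from 0.291 to 0.531. Eprs had the highest CPM of the 4, 224 to 293 CPM in KO CMP and 210.3 to 259.8 CPM in WT CMP, and Cars the lowest, 36.8 to 51.3 CPM in KO CMP and 34.003 to 41.4 CPM in WT CMP.

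WT libraries of numbers 1 and 2 also differed from those of numbers 3 and 4 in some members, with no KO library involved. In WT CMP (n = 2 against 2) Asns (0.77) and Nars (0.53) were called higher and Vldlr (-0.94), Ppp1r15a (-0.42), Sars (-0.34) and Mthfd2 (-0.25) lower, beside 12.3% of all genes higher and 10.6% lower. With the library number as a block, Ppp1r15a (-0.27, adjusted p = 0.161) and Mthfd2 (-0.28, adjusted p = 0.0602) were not called. Left-out libraries ended some calls: Ppp1r15a without WT CMP library 2 (-0.19) or 4 (-0.32), Sars without library 1 (-0.30) or 4 (-0.26), and Mthfd2 without library 1 (-0.24), 2 (-0.26) or 4 (-0.21). Without the filter on low counts Mthfd2 was not called (-0.24, adjusted p = 0.062). In WT GMP the edgeR test called Slc7a11 lower (-1.73, adjusted p = 0.0424) and 0 members higher, beside 5.45% of all genes lower and 3.16% higher. That call was lost in every fit that left out 1 of the 4 libraries (-2.20 to -1.39) and with the library number as a block (-1.56, adjusted p = 0.172). DESeq2 called 2 members higher and 3 lower there, beside 5.93% and 8.33% of genes, and edgeR called 1 higher with RLE size factors, without the filter, with the stricter filter or after division by 4. In that comparison 3 members were higher and 4 lower at an unadjusted p under 0.05, against 11% and 14.4% of all genes.

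More members were called between cell types than between genotypes in the tests over all libraries. The same held for all genes, of which edgeR called 0% in KO against WT in either cell type. In KO, GMP against CMP gave 6 members higher and 5 lower, beside 10.7% of all genes higher and 10.5% lower. In WT it gave 8 higher and 5 lower, beside 11.3% and 14.2%. Slc7a11 was higher in GMP by 2.53 ± 0.60 in KO (adjusted p = 0.00793) and 1.65 ± 0.55 in WT (adjusted p = 0.0418). Chac1 was higher by 1.80 ± 0.41 in KO (adjusted p = 0.00643) and 1.24 ± 0.38 in WT (adjusted p = 0.0282). For Nars the changes were 0.80 ± 0.15 in KO (adjusted p = 0.00243) and 0.69 ± 0.14 in WT (adjusted p = 0.00386), and every GMP library lay above the CMP libraries of its genotype.

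Vldlr was lower in GMP by -2.38 ± 0.53 in KO (adjusted p = 0.00613) and -3.84 ± 0.52 in WT (adjusted p = 0.000279). Trib3 changed by -2.21 ± 0.72 in KO (adjusted p = 0.0411) and -3.74 ± 0.70 in WT (adjusted p = 0.00192). Ppp1r15a, with GMP libraries wholly below CMP libraries, changed by -0.98 ± 0.15 in KO (adjusted p = 0.0007) and -1.09 ± 0.13 in WT (adjusted p = 0.000177). Ddit4 changed by -0.70 ± 0.19 in KO (adjusted p = 0.0178) and -1.24 ± 0.18 in WT (adjusted p = 0.000395), and Atf3 by -0.89 ± 0.29 in KO (adjusted p = 0.0427) and -1.15 ± 0.27 in WT (adjusted p = 0.00701). Whether these steps differ between genotypes is the difference of KO effects tested above, in which 0 members were called.

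Also higher in GMP of both genotypes were Asns (0.68 ± 0.22 in KO, adjusted p = 0.0363; 0.61 ± 0.20 in WT, adjusted p = 0.0383), Atf5 (0.68 ± 0.20 in KO, adjusted p = 0.0292; 0.55 ± 0.19 in WT, adjusted p = 0.0492) and Mars (0.20 ± 0.07 in KO, adjusted p = 0.046; 0.21 ± 0.06 in WT, adjusted p = 0.0243). In WT alone Mthfd2 (0.41 ± 0.09, adjusted p = 0.00665) and Aars (0.22 ± 0.07, adjusted p = 0.0269) passed.

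Several cell type calls were lost when 1 library was left out, with the direction of the change kept. In every fit that left out 1 library, Nars, Vldlr and Ppp1r15a passed in both genotypes, Chac1 and Slc7a11 in KO, and Trib3, Atf3, Ddit4 and Mthfd2 in WT. In KO, Ddit4 was lost without KO GMP library 3 (-0.59) or 4 (-0.65), and Atf5 without KO CMP library 1 (0.57) or 2 (0.67) or KO GMP library 3 (0.58) or 4 (0.67). Trib3 was lost without KO CMP library 1 (-2.02), 3 (-2.24) or 4 (-2.16) or KO GMP library 3 (-2.23) or 4 (-1.80), and Asns without KO CMP library 3 (0.60) or 4 (0.60) or KO GMP library 1 (0.61), 3 (0.72) or 4 (0.73). Atf3 was lost without any library but KO CMP 1 (-0.92 to -0.73), and Mars without any but KO CMP 4 (0.14 to 0.24). In WT, Aars was lost without WT CMP library 1 (0.18) or 3 (0.23) or WT GMP library 3 (0.18) or 4 (0.19), and Chac1 without WT CMP library 2 (1.18) or 4 (1.10) or WT GMP library 3 (1.05) or 4 (1.19). Slc7a11 was lost without WT CMP library 2 (1.73), 3 (1.43) or 4 (1.49) or WT GMP library 3 (1.24) or 4 (1.45), and Mars without WT CMP library 2 (0.18) or 4 (0.20) or WT GMP library 2 (0.20), 3 (0.18) or 4 (0.20). Asns was lost without WT CMP library 3 or 4 or any WT GMP library (0.47 to 0.64), and Atf5 without WT CMP library 2 or 3 or any WT GMP library (0.36 to 0.57). With the library number as a block, Atf3 (-0.82, adjusted p = 0.0771) and Trib3 (-2.19, adjusted p = 0.0539) were not called in KO, which leaves 3 lower, nor Slc7a11 in WT (1.69, adjusted p = 0.0575). Without the filter on low counts Mars was not called in KO (0.19, adjusted p = 0.0756) or WT (0.19, adjusted p = 0.0526), nor Atf5 in WT (0.53, adjusted p = 0.0625), and with RLE size factors Mars was not called in KO (0.18, adjusted p = 0.0624). Without the 3 libraries with high Xist, Mars (0.11, adjusted p = 0.347), Atf5 (0.61, adjusted p = 0.0936) and Chac1 (1.56, adjusted p = 0.0567) were not called in KO.

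**Figure D5:**
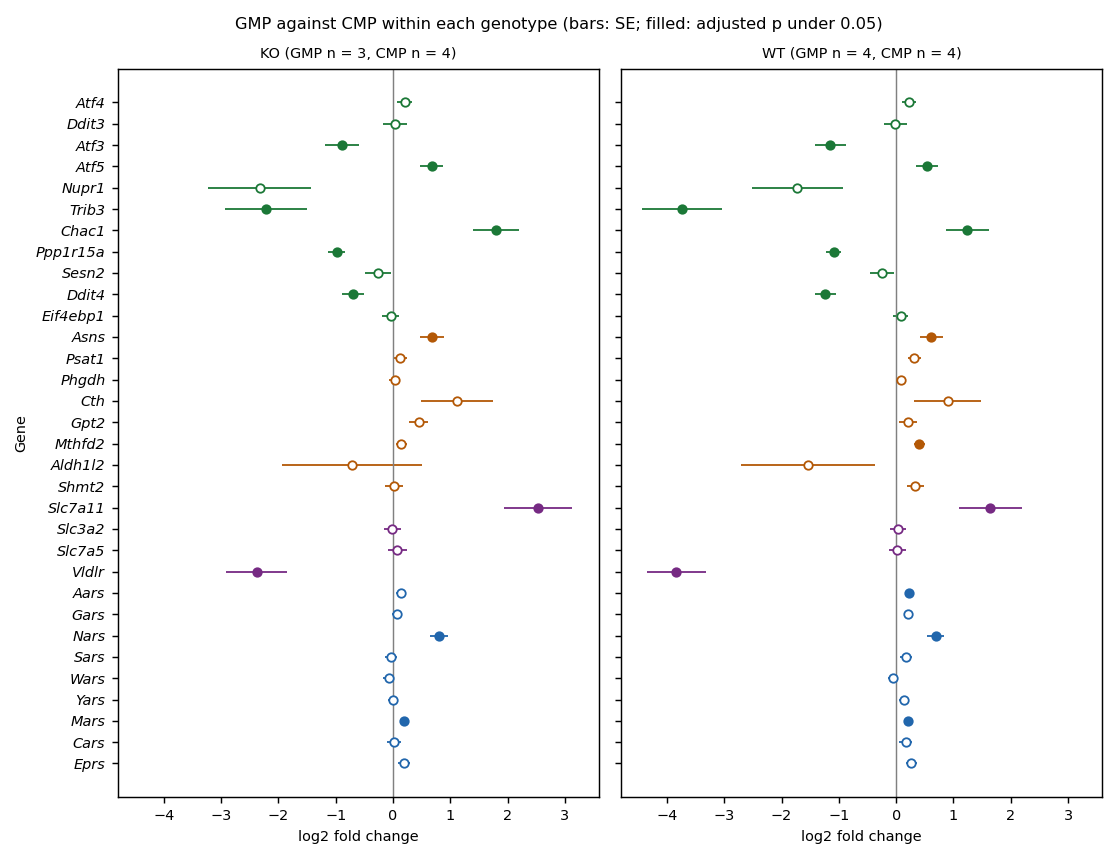
GMP against CMP log2 change (x axis) of each member (rows, coloured by role), in KO in the left panel and in WT in the right panel; points are edgeR estimates, filled where the adjusted p is under 0.05, and bars are ± 1 SE. Slc7a11, Chac1, Nars, Asns and Atf5 lie right of 0 and Vldlr, Trib3, Atf3, Ppp1r15a and Ddit4 left of 0 in both panels, which rest on separate libraries.

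Related genes outside the 32 were read from lists chosen with earlier results of these data known. In CMP of numbers 1 and 2, 2 of the 11 other cytosolic synthetases rose (Lars, 0.34 ± 0.08, adjusted p = 0.00848; Vars, 0.28 ± 0.07, adjusted p = 0.0183) and 0 fell. Over all genes edgeR called 8.23% higher and 10.2% lower in that comparison. The edgeR test called 0 of the 17 mitochondrial synthetases and 0 of the 3 scaffold genes of the multisynthetase complex there, while DESeq2 called the mitochondrial synthetases Aars2 and Tars2 higher. Of 15 genes of the eIF2 kinases and eIF2 cycle, 2 rose, among them the exchange factor subunit Eif2b3 (0.32 ± 0.09, adjusted p = 0.0217), and 3 fell, among them the kinase genes Eif2ak3 (PERK, -0.45 ± 0.10, adjusted p = 0.00669) and Eif2ak1 (HRI, -0.31 ± 0.09, adjusted p = 0.036). Of 25 tested genes linked to ATF4 in other settings, 4 rose and 5 fell, with the secreted stress factor Gdf15 (1.64 ± 0.40, adjusted p = 0.0128) and Ndrg1 (0.77 ± 0.09, adjusted p = 7.44e-05) higher and the ER degradation factor Herpud1 (-0.62 ± 0.07, adjusted p = 7.03e-05) and Jdp2 (-0.49 ± 0.09, adjusted p = 0.00155) lower. With DESeq2 the counts in CMP of numbers 1 and 2 were 3 other cytosolic synthetases higher, 4 eIF2 genes higher and 3 lower, and 5 ATF4-linked genes in each direction. DESeq2 called 11.8% of genes higher and 10.7% lower in that comparison. The ATF4-linked gene Fgf21 did not pass the filter on low counts.

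In numbers 1 and 2 of GMP, 2 other cytosolic synthetases rose (Lars, 0.39 ± 0.09, adjusted p = 0.0116; Iars, 0.30 ± 0.10, adjusted p = 0.0465), 2 mitochondrial synthetases rose (Tars2, 0.32 ± 0.08, adjusted p = 0.0135; Iars2, 0.35 ± 0.11, adjusted p = 0.043) and 1 scaffold gene fell (Eef1e1, -0.42 ± 0.10, adjusted p = 0.0126). Of the eIF2 list 4 rose and 0 fell, among them Eif2ak4, which encodes the amino acid sensor kinase GCN2 (0.32 ± 0.10, adjusted p = 0.0382), and Eif2b3 (0.49 ± 0.10, adjusted p = 0.00509). Of the ATF4-linked list 3 rose and 3 fell, with Slc1a4, a neutral amino acid transporter gene (3.31 ± 0.71, adjusted p = 0.00629), and Ndrg1 (1.27 ± 0.11, adjusted p = 8.89e-06) higher and the ATF4 partner gene Cebpg (-1.07 ± 0.15, adjusted p = 0.000274) lower. With DESeq2 the counts there were 4 other cytosolic synthetases higher and 1 lower, 2 mitochondrial synthetases higher, 1 scaffold gene lower, 4 eIF2 genes higher, and 4 ATF4-linked genes higher and 3 lower. The shares of all genes called in numbers 1 and 2 of GMP are given above with the members, for each tool. In numbers 3 and 4, and over all libraries, 0 genes of these 5 lists were called by edgeR in KO against WT in CMP or GMP. In these tests edgeR called at most 0.00659% of all genes in each direction. DESeq2 called Kars, Eif2b3 and Eif2s1 higher over all CMP libraries and Lars2 lower in CMP of numbers 3 and 4, and 0 genes of these lists in GMP in either test. It called 1.12% of genes higher and 1.9% lower over all CMP libraries, and 0.481% and 0.428% in CMP of numbers 3 and 4. For GMP the shares were 0.317% and 0.0792% over all libraries, and 0.0891% and 0.206% in numbers 3 and 4. At an unadjusted p under 0.05, 7 of 11 other cytosolic synthetases, 2 of 3 scaffold genes, 4 of 15 eIF2 genes, 3 of 25 ATF4-linked genes and 2 of 17 mitochondrial synthetases were higher in CMP of numbers 3 and 4, and 0, 0, 1, 0 and 1 of them lower. Of all genes 6.18% were higher and 5.21% lower there at that p. Over all CMP libraries 3 other cytosolic synthetases, 4 eIF2 genes and 2 ATF4-linked genes reached that p in the higher direction, and 1 mitochondrial synthetase, 1 eIF2 gene and 1 ATF4-linked gene in the lower. The shares of all genes were 4.68% higher and 6.92% lower. In GMP the unadjusted counts were 1 eIF2 gene higher and 2 ATF4-linked genes lower over all libraries, and 1 ATF4-linked gene in each direction in numbers 3 and 4. Of all genes 4.49% were higher and 2% lower over all GMP libraries, and 2.07% and 3.12% in numbers 3 and 4.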

How the data were processed

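RNA from sorted KO and WT CMP and GMP was made into 15 libraries with a SMARTER mRNA-Seq kit, per the labels' protocols. HISAT and the mm10 build are named in the submitters' processing notes; the counting tool, its annotation and its strand setting are given in none of the sources used here. The deposited values are the authors' estimated counts per gene, here rounded to whole numbers. Of 40915 low values (1 to 40), 38% were multiples of 4, so 1 fragment may be worth about 4 units, which no source used here states. Library totals were 61.3 to 120.3 M units, or 15.3 to 30.1 M after division by 4, which limits genes under about 1 CPM most. No pair of libraries was identical, and 0 columns were left unused.

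From these values, edgeR 4.0.16 (R 4.3.3) gave the quasi-likelihood test, with its filter on low counts (15181 genes of 23337 kept), TMM scaling, Benjamini-Hochberg adjustment over those genes and a threshold of 0.05. One fit had a coefficient for each of 4 groups (11 residual degrees of freedom). A second had one for each number set within a group (residual degrees of freedom, 7). CPM values are TMM-scaled. The fits were also run on simulated data, with changes larger than most KO effects given here, so that run does not cover effects of this size. Trappc1 was tested by exact permutation. The members, the gene lists and the number sets were chosen with earlier results of these data known.

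Values in every library are given for members called in KO against WT, in a difference of KO effects, or among the 5 largest cell type changes, and for Atf4 and Ddit3. Shmt2, Aars in the all-library comparison and members that did not overlap between groups were named after their values were seen. From each other list, up to 4 called genes were named by smallest p.

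Library numbers come from the labels. Deviations of KO and WT libraries with the same number from their group means correlated at 0.199, 0.278, 0.176 and 0.346 in CMP numbers 1 to 4 and at 0.127, 0.13 and 0.181 in GMP numbers 1, 3 and 4. These values do not settle whether a number pairs single libraries, and the main fits did not use the number as a block. In 4 of the 7 cases another number of the same set correlated more (CMP 1 with 2, 0.2; CMP 3 with 4, 0.267; GMP 1 with 2, 0.192; GMP 3 with 4, 0.16), and the fit with the number as a block is given where it changed a call.

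Alternatives were RLE size factors, DESeq2 1.42.0, no filter, a filter of at least 1 CPM in 3 libraries, values divided by 4, the block, the number set as a covariate and each library left out. Leaving out the 3 libraries with high Xist was added after the data were seen. Gene positions and exon lengths are from GENCODE M21 and promoter windows from RefSeq (GRCm38.p6). The sequence of one further promoter match is not reported here.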

Additional observations from a re-analysis of the deposited data

Results flagged for a closer look

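In 6 of the 96 gene and group combinations tested, 1 of 4 libraries stood far from the other 3, and chance flags about 1 in 20. Atf3 had 16.6 CPM in KO CMP library 1, against 47.4 to 55.4 CPM in the other KO CMP libraries. Ddit4 had 27.9 CPM in the same library, against 35.3 to 35.6 CPM. Cth had 0.0998 CPM in KO CMP library 4, against 0.161 to 0.168 CPM. Psat1 had 202 CPM in WT CMP library 2, against 167 to 171 CPM. Sesn2 had 8.95 CPM in WT GMP library 2, against 6.73 to 7.06 CPM, and Trib3 had 0 CPM in WT GMP library 1, against 0.151 to 0.17 CPM.

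The KO effect in numbers 1 and 2 differed from that in numbers 3 and 4 by edgeR's test of the difference in 4 members. For Vldlr the difference was 1.82 in CMP and 2.77 in GMP, and for Nars -0.63 in CMP and -0.37 in GMP (log2). For Slc7a5 it was 0.58 and for Wars 0.38, both in GMP. Over all genes the difference was called higher in 3.05% and lower in 4.59% in CMP. In GMP it was called higher in 6.27% and lower in 4.36% of all genes. Numbers 1 and 2 hold the 3 libraries with high Xist, and the GMP values rest on 1 KO library there. These 3 libraries also had less Trappc1 than the KO libraries of numbers 3 and 4.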

How the results depend on the processing

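Members called in KO against WT over all libraries numbered 0 in edgeR under each alternative, while DESeq2 called 4 higher in CMP and 1 higher in GMP. DESeq2 also called 13 higher in numbers 1 and 2 of CMP, 2 higher in numbers 3 and 4 of CMP, 11 higher in numbers 1 and 2 of GMP, and 2 higher and 3 lower between WT GMP number sets. Without the 3 high-Xist libraries 3 members were higher in KO GMP against KO CMP. With the replicate block 3 were lower in that comparison, 2 lower in the CMP difference of KO effects, 2 lower between WT CMP number sets and 0 lower between WT GMP number sets. The block changed no other member count by over 1.5 times, and of 54 called single values 46 passed with it. Without the filter 0 were lower in the GMP difference of KO effects. Between WT GMP number sets 1 member was higher with RLE size factors, without the filter, with the stricter filter and with values divided by 4. The cause of these changes was not tested. No value reversed. Of the 54 called values, 53 passed with RLE, 54 with DESeq2, 46 without the filter and 54 after division by 4, as did 52 of 52 with the stricter filter, 24 of 24 with number set as covariate and 21 of 24 without the high-Xist libraries.

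With 1 library left out, calls in KO against WT over all libraries, in the CMP minus GMP difference and in numbers 3 and 4 ranged from 0 to 0. For GMP against CMP they ranged from 3 to 5 higher and 2 to 5 lower in KO, and from 2 to 7 higher and 5 to 5 lower in WT. In numbers 1 and 2 they ranged from 6 to 8 higher and 1 to 2 lower in CMP, and from 4 to 9 higher and 0 to 1 lower in GMP. Differences of KO effects ranged from 1 to 1 higher and 1 to 2 lower in CMP, and from 2 to 4 higher and 0 to 1 lower in GMP. Between WT number sets they ranged from 2 to 3 higher and 1 to 6 lower in CMP, and from 0 to 1 in each direction in GMP. Trappc1 ranged from -1.80 to -1.19 in CMP, where 1 library fewer cannot pass 0.05, and from -1.53 to -0.52 in GMP.

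Over all genes, edgeR called 0 higher and 0 lower in KO against WT in CMP, against 133 and 227 with DESeq2, and 0 and 0 in GMP, against 48 and 12 with DESeq2 and 4 and 1 with number set as covariate. In numbers 3 and 4 edgeR called 1 and 0 genes in CMP, against 73 and 65 with DESeq2, 2 and 2 without the filter and 2 and 2 with the block. In GMP of those numbers it called 1 and 1, against 13 and 30 with DESeq2, 3 and 9 without the filter and, among lower genes, 3 with the stricter filter, 7 after division by 4 and 5 with the block. After division by 4, 2 were higher there. Without the high-Xist libraries 1 gene was lower in KO against WT in CMP and 1 in the CMP minus GMP difference, where edgeR called 0 and DESeq2 3. The CMP difference between number sets was called higher in 463 genes by edgeR and 810 by DESeq2. Between WT CMP number sets 1616 genes were lower, against 972 with the block. Between WT GMP number sets 479 were higher, against 866 with DESeq2 and 264 with the block, and 828 lower, against 493 with the block. Without WT CMP library 4, 2 genes were higher and 48 lower in KO against WT in CMP.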
